A study of Mus musculus with 4 samples.

Results

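Apoptotic cells are cleared by phagocytes that recognize lipid exposed on the dying cell, either directly or through a soluble bridge. The 8 genes described here are MERTK, AXL and TYRO3, which encode the TAM receptor tyrosine kinases, GAS6, PROS1 and MFGE8, which encode bridging ligands, STAB1, which encodes a scavenger receptor, and ELMO1, which encodes an adaptor of the engulfment machinery. They were chosen by name as receptors, bridges and an adaptor of this process, with earlier results of these data known. They are 8 of the 14717 genes listed at either time point. The deposited table held 7 of them at 7 dpi and 7 at 21 dpi, and 6 at both. MERTK at 21 dpi and MFGE8 at 7 dpi were not analysed here. Every listed member passed the minimum mean of 1 FPKM that was set for the comparisons.

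RNA was sequenced from the lesion site of the spinal cord, a segment of about 4 mm, after a contusion of 50 kdyne at the thoracic level T9. ApoE3 and ApoE4 mice were each sampled 7 and 21 days after injury (dpi), giving 4 groups, all of male mice aged 3 to 5 months at injury in which the human ApoE3 or ApoE4 isoform replaces the mouse gene. The study's methods give 3 mice per group, but the table holds 1 value per gene and group, so no spread between mice could be computed, no test was run and no difference below has a replicate check. The number of reads behind a value is unknown.

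Levels are in FPKM, which is normalized to transcript length, so that genes can be set side by side within a group. A ratio is log2((FPKM + 1)/(FPKM + 1)), positive when higher in ApoE3 or at 21 dpi, and this scale understates the change of low genes. Unless stated otherwise the median ratio of all genes that averaged 1 FPKM or more in a comparison was subtracted. A gene was counted as past the fold when the resulting ratio reached 1.3-fold in either direction. The median subtracted was 0.0018 between genotypes at 7 dpi and -0.42 at 21 dpi, where 94.1% of genes were lower in ApoE3 before the subtraction. Between time points it was 0.089 in ApoE3 and 0.53 in ApoE4. The time points may have been normalized in separate runs. Which value column belongs to which genotype can be read in both ways from the table. The comparison's name puts ApoE3 first and was followed, and the other reading would turn each genotype direction given here into its opposite.

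The labelled tissue could be checked against markers of its cell types. MBP, a myelin protein of oligodendrocytes, had 120571 FPKM in ApoE3 and 127575 FPKM in ApoE4 at 7 dpi. GFAP, an intermediate filament of astrocytes, had 12395 and 12386 FPKM, and SNAP25, a synaptic protein of neurons, had 3366 and 2545. LYZ2, a lysozyme of macrophages, had 4522 and 6076 FPKM. Segments of this kind hold glia, neurons and infiltrating cells together, and in bulk RNA fewer cells of a type cannot be told apart from less RNA per cell.

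As background, phosphatidylserine on the outer face of the membrane marks a cell for engulfment. GAS6 and PROS1 carry carboxylated glutamate residues that bind this lipid, and they bind TAM receptors on the phagocyte. MFGE8 links the same lipid to integrins, STAB1 binds it directly, and ELMO1 acts with DOCK proteins to activate Rac, which drives the engulfing membrane. In the injured spinal cord, microglia, macrophages and astrocytes take up dying cells and myelin debris.

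**Figure D1:**
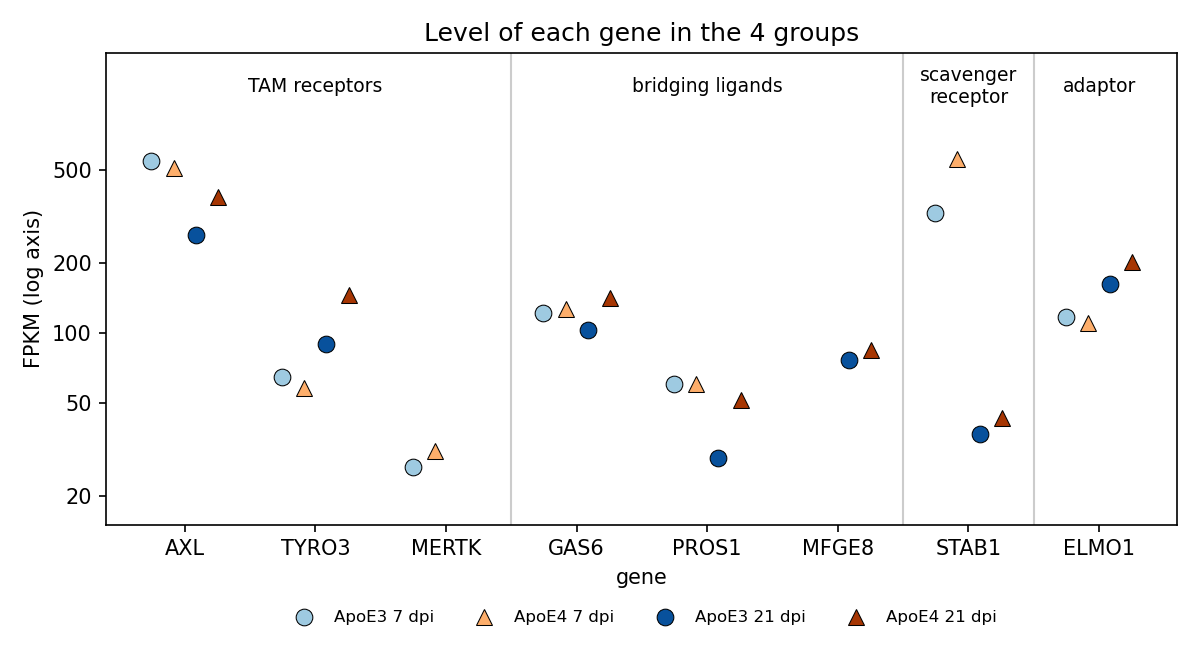
Level of the 8 genes in FPKM on a log axis, with 1 point per group, circles for ApoE3, triangles for ApoE4, and darker colors for 21 dpi. AXL spans 263 to 548 FPKM, STAB1 spans 36.7 to 559 FPKM, and MERTK at 21 dpi and MFGE8 at 7 dpi have no point.

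The levels followed a different order at each time point. At 7 dpi in ApoE3, the order from highest to lowest FPKM was AXL, STAB1, GAS6, ELMO1, TYRO3, PROS1 and MERTK. In ApoE4 at 7 dpi STAB1 stood above AXL, PROS1 stood above TYRO3, and the others kept that order. At 21 dpi AXL was the highest in both genotypes and ELMO1 came next, while STAB1 had moved to the lowest place in ApoE4 and to the second lowest, above PROS1, in ApoE3. No spread is available to say which neighbors in these orders differ. As a position among all listed genes, 96.8% had a lower FPKM than AXL in ApoE3 at 7 dpi and 44.7% had a lower FPKM than MERTK. For STAB1 in ApoE4, that share was 96.8% at 7 dpi and 53.6% at 21 dpi.

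Among the TAM receptors, AXL is the one known to be induced in inflamed tissue. Its level was 548 FPKM in ApoE3 and 513 FPKM in ApoE4 at 7 dpi, and 263 and 384 FPKM at 21 dpi. Both values at 7 dpi were above both at 21 dpi. Relative to all genes, AXL was 2.21-fold lower at 21 dpi in ApoE3 and 1.92-fold lower in ApoE4, and without the subtraction it was 2.08-fold and 1.34-fold lower. Between genotypes its ratio was 0.09 at 7 dpi and -0.12 at 21 dpi, both inside the fold, although without the subtraction it was 1.46-fold higher in ApoE4 at 21 dpi.

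TYRO3, the TAM receptor best known from neurons, ran the other way in time. It had 64.8 FPKM in ApoE3 and 57.9 FPKM in ApoE4 at 7 dpi, and 89.6 and 146 FPKM at 21 dpi. Relative to all genes, TYRO3 was 1.73-fold higher at 21 dpi in ApoE4, past the fold, and 1.29-fold higher in ApoE3, just inside it. The values without the subtraction were 2.49-fold and 1.38-fold. Between genotypes the ratio was 0.16 at 7 dpi and -0.27 at 21 dpi, a difference of -0.43 that was not tested and in which neither ratio is past the fold. Without the subtraction the ratio at 21 dpi was -0.69, past the fold toward ApoE4.

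MERTK, a receptor for engulfment by macrophages and astrocytes, was the lowest of the 3 at 7 dpi. Its level was 26.6 FPKM in ApoE3 and 31.1 FPKM in ApoE4, which is 1.17-fold higher in ApoE4 relative to all genes and inside the fold. Among all genes, 13.3% had a lower ratio.

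AXL had the highest FPKM of the listed TAM receptors in each group. At 7 dpi AXL made up 85.7% of the summed FPKM of the 3 receptors in ApoE3 and 85.2% in ApoE4. TYRO3 made up 10.1% and 9.61%, and MERTK 4.16% and 5.16%. Since MERTK was not analysed at 21 dpi, only AXL and TYRO3 could be followed over time. AXL held 89.4% of their sum in ApoE3 and 89.9% in ApoE4 at 7 dpi, and 74.6% and 72.5% at 21 dpi. The level of AXL was thus 8.45 times that of TYRO3 in ApoE3 and 8.87 times in ApoE4 at 7 dpi, and 2.94 and 2.64 times at 21 dpi. These shares do not depend on how a group was scaled.

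GAS6, the ligand that binds all TAM receptors, varied least of the 6 members listed at both time points. It had 122 FPKM in ApoE3 and 127 FPKM in ApoE4 at 7 dpi, and 103 and 142 FPKM at 21 dpi. Its ratio between genotypes was -0.06 at 7 dpi and -0.04 at 21 dpi. Without the subtraction the second was -0.46, past the fold toward ApoE4. From 7 to 21 dpi the ratio of GAS6 was -0.34 in ApoE3 and -0.37 in ApoE4, inside the fold. In ApoE4 it was past the fold with pseudocounts of 0.1 (-0.40) and 0.01 (-0.41). It was also past the fold there when centred on genes averaging 10 FPKM or more (-0.41). Without the subtraction its sign in ApoE4 turned to 0.15. The range of its log2 level over the 4 groups, each group's median being subtracted, was 0.29, and 17% of 10861 genes had a smaller range.

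PROS1, which encodes protein S, an anticoagulant of plasma and a ligand of TYRO3 and MERTK, had nearly the same level in both genotypes at 7 dpi. The values were 60.6 FPKM in ApoE3 and 60.6 FPKM in ApoE4. At 21 dpi it had 28.9 FPKM in ApoE3 and 51.3 FPKM in ApoE4. It was then higher in ApoE4 relative to all genes, with a ratio of -0.383 that passed the threshold of 0.379 by a small margin. Centred on genes that averaged 10 FPKM or more, the ratio was -0.377 and the call was lost. Without the subtraction it was 1.75-fold higher. Relative to all genes PROS1 was 2.19-fold lower at 21 dpi than at 7 dpi in ApoE3 and 1.70-fold lower in ApoE4. Without the subtraction the second value was 1.18-fold, inside the fold.

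Protein S is made in large part by the liver, and at 21 dpi liver markers, like PROS1, were higher in ApoE4. Of the 10 liver markers 0 were listed at 7 dpi, so they could not be set beside PROS1 over time, and 7 were listed at 21 dpi, and all 7 were past the fold and higher in ApoE4. Their summed level was 10.7 FPKM in ApoE3 and 126 FPKM in ApoE4, none was listed at 0, and APOA2, an apolipoprotein, was the most abundant with 5.38 and 59.2 FPKM. Skeletal muscle markers summed to 33.6 FPKM in ApoE3 and 710 FPKM in ApoE4 at 21 dpi, with 7 of 7 listed genes past the fold and higher in ApoE4. TNNT3, a troponin and the most abundant of them, had 22.5 and 515 FPKM, and MYH4, a myosin heavy chain, was listed at 0 in ApoE3. The part of either tissue in the PROS1 values was not tested.

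MFGE8, also called lactadherin, was listed at 21 dpi only, with 76.5 FPKM in ApoE3 and 84.8 FPKM in ApoE4. Relative to all genes it was 1.21-fold higher in ApoE3, inside the fold, while without the subtraction it was 1.11-fold higher in ApoE4. At 21 dpi GAS6 made up 49.3% of the summed FPKM of the 3 ligands in ApoE3 and 51% in ApoE4. MFGE8 made up 36.8% and 30.6%, and PROS1 13.9% and 18.5%. For GAS6 and PROS1 alone, the share of GAS6 was 66.8% in ApoE3 and 67.7% in ApoE4 at 7 dpi, and 78% and 73.4% at 21 dpi.

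STAB1, a scavenger receptor of alternatively activated macrophages and of sinusoidal endothelium, had the widest range of the members. It had 329 FPKM in ApoE3 and 559 FPKM in ApoE4 at 7 dpi, and 36.7 and 43.1 FPKM at 21 dpi. At 7 dpi STAB1 was 1.70-fold higher in ApoE4 and was the only member past the fold between genotypes at that time. Of all genes, 0.495% had a lower ratio. At 21 dpi the ratio was 0.20, inside the fold, and -0.23 without the subtraction. From 7 to 21 dpi STAB1 was 9.32-fold lower in ApoE3 and 18.3-fold lower in ApoE4, or 8.76-fold and 12.7-fold lower without the subtraction. Its range over the 4 groups was 4.09 on the log2 scale, and 99.8% of genes had a smaller one.

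Macrophage markers, like STAB1, were higher in ApoE4 than in ApoE3 at 7 dpi by their sum and lower at 21 dpi than at 7 dpi, but between genotypes at 21 dpi their median ratio had the opposite sign, and without the subtraction the same sign. At 7 dpi 12 of the 13 macrophage markers were listed, with 5 past the fold and higher in ApoE4 and 0 past it in the other direction. Their summed level was 7251 FPKM in ApoE3 and 9513 FPKM in ApoE4. For the 6 that were listed at both time points, the sum was 5851 FPKM in ApoE3 and 7706 FPKM in ApoE4 at 7 dpi, and 294 and 575 FPKM at 21 dpi. All 6 were past the fold and lower at 21 dpi in both genotypes. LYZ2 was the most abundant, with 212 FPKM in ApoE3 and 426 FPKM in ApoE4 at 21 dpi, and no macrophage marker was listed at 0. At 21 dpi 4 of these 6 were past the fold and higher in ApoE4, with a median ratio of -0.57, beside a ratio of 0.20 for STAB1. All 6 were past it toward ApoE4 without the subtraction, beside 59% of all genes. The part of macrophage content in the STAB1 values was not tested.

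Fibroblast and pericyte markers were also lower at 21 dpi than at 7 dpi, as STAB1 was. For the 8 genes listed at both time points the sum was 818 FPKM in ApoE3 and 1012 FPKM in ApoE4 at 7 dpi, and 231 and 216 FPKM at 21 dpi. At 21 dpi 7 of 8 in ApoE3 and 8 of 8 in ApoE4 were past the fold and lower than at 7 dpi, or 6 and 7 of 8 without the subtraction, with 1 then higher in ApoE3. COL1A1, a fibrillar collagen and the most abundant of them at 7 dpi, had 212 and 270 FPKM at 7 dpi and 2.44 and 2.27 FPKM at 21 dpi. At 7 dpi 2 of 9 listed were past the fold toward ApoE4 and 0 toward ApoE3. At 21 dpi 5 of 8 were past it toward ApoE3 and 0 toward ApoE4, with a median ratio of 0.59. These became 3, 1 and 0.16 without the subtraction. None was listed at 0, and their part in the STAB1 values was not tested.

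Endothelial markers, set beside STAB1 because sinusoidal endothelium makes it, were not lower at 21 dpi by their sum. For the 7 of 8 genes listed at both time points it was 330 FPKM in ApoE3 and 329 FPKM in ApoE4 at 7 dpi, and 438 and 505 FPKM at 21 dpi. Relative to all genes, 2 of 7 in ApoE3 and 0 of 7 in ApoE4 were past the fold and higher at 21 dpi, beside 26.6% and 26.2% of all genes. In each genotype 2 of 7 were lower, beside 27.7% of all genes in ApoE3 and 28.6% in ApoE4. Without the subtraction 5 of 7 were higher in ApoE4, beside 59.1%. The shares relative to all genes are the same for the other marker lists over time. Between genotypes, 4.71% of all genes were past the fold toward ApoE4 and 3.59% toward ApoE3 at 7 dpi. At 21 dpi it was 7.93% and 7.16%, or 59% and 1.8% without the subtraction. These shares also stand beside the counts of every marker list. Of the endothelial markers, 0 of 8 were past the fold between genotypes at 7 dpi, and 1 of 7 was at 21 dpi, CDH5, toward ApoE3. At 21 dpi without the subtraction, FLT1 alone was past it, toward ApoE4. EGFL7, a secreted vascular protein and the most abundant, had 112 and 115 FPKM at 7 dpi and 197 and 205 FPKM at 21 dpi. None was listed at 0, and the part of these cells in the STAB1 values was not tested.

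**Figure D2:**
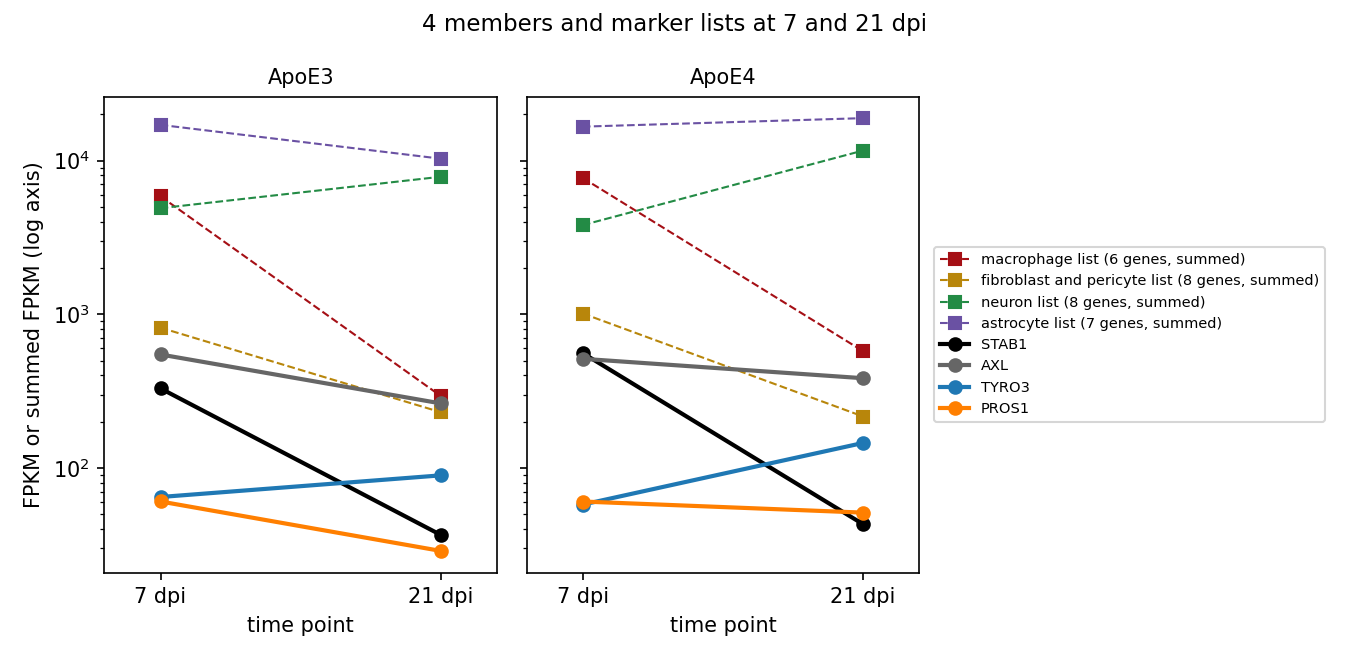
FPKM of STAB1, AXL, TYRO3 and PROS1 (circles, solid lines) and summed FPKM of 4 marker lists (squares, dashed lines) at 7 and 21 dpi, on a log axis, with 1 panel per genotype. STAB1 and the macrophage and fibroblast sums are far lower at 21 dpi in both panels, while TYRO3 and the neuron sum are higher, and the astrocyte sum is lower in ApoE3 and higher in ApoE4. Levels and sums are shown without the subtraction.

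ELMO1, the adaptor, was higher at 21 dpi in both genotypes, by less than the fold. It had 117 FPKM in ApoE3 and 110 FPKM in ApoE4 at 7 dpi, and 162 and 201 FPKM at 21 dpi. Relative to all genes ELMO1 was 1.29-fold higher at 21 dpi in ApoE3 and 1.27-fold higher in ApoE4, and without the subtraction it was 1.38-fold and 1.82-fold higher. Its ratio between genotypes was 0.09 at 7 dpi and 0.11 at 21 dpi, and the second was -0.31 without the subtraction.

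The neuron markers, like TYRO3 and ELMO1, were higher at 21 dpi. For the 8 of 11 markers listed at both time points the sum was 4903 FPKM in ApoE3 and 3806 FPKM in ApoE4 at 7 dpi, and 7850 and 11623 FPKM at 21 dpi. Of these, 5 in ApoE3 and 8 in ApoE4 were past the fold and higher at 21 dpi. SNAP25, the most abundant, had 5336 FPKM in ApoE3 and 7812 FPKM in ApoE4 at 21 dpi. At 7 dpi all 10 listed neuron markers had a ratio above 0, with 2 past the fold and a median of 0.25, beside ratios of 0.16 for TYRO3 and 0.09 for ELMO1. At 21 dpi 6 of 8 had a ratio below 0, with 1 past the fold toward ApoE4, 0 toward ApoE3 and a median of -0.08, beside -0.27 for TYRO3 and 0.11 for ELMO1. Without the subtraction 6 of 8 were past it toward ApoE4, where 59% of all genes were. Their median was then -0.50, beside -0.69 for TYRO3 and -0.31 for ELMO1. Oligodendrocyte markers were past the fold and higher at 21 dpi in 3 of the 5 that were listed at both time points, in ApoE3 and in ApoE4. Their sum was 126763 FPKM in ApoE3 and 133926 FPKM in ApoE4 at 7 dpi, and 209868 and 291150 FPKM at 21 dpi, with MBP the most abundant. No marker of either list was listed at 0, and the part of these cells in the values of TYRO3 and ELMO1 was not tested.

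Between genotypes, the question was whether the clearance genes differed in the lesions of ApoE3 and ApoE4 mice. At 7 dpi 1 of 7 members, STAB1, was past the fold and higher in ApoE4, where 4.71% of 13947 genes were. In the other direction it was 0 of 7 members and 3.59% of genes. At 21 dpi 1 of 7, PROS1, was past the fold and higher in ApoE4, or 0 of 7 with the centring on genes that averaged 10 FPKM or more, beside 7.93% of 11396 genes, and 0 of 7 were higher in ApoE3, beside 7.16%. Without the subtraction 4 of 7 were higher in ApoE4 at 21 dpi, namely AXL, TYRO3, GAS6 and PROS1, beside 59% of all genes, and 0 of 7 were higher in ApoE3, beside 1.8%. The median ratio of the members was -0.0012 at 7 dpi and -0.04 at 21 dpi, where that of all genes is 0 by construction.

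**Figure D3:**
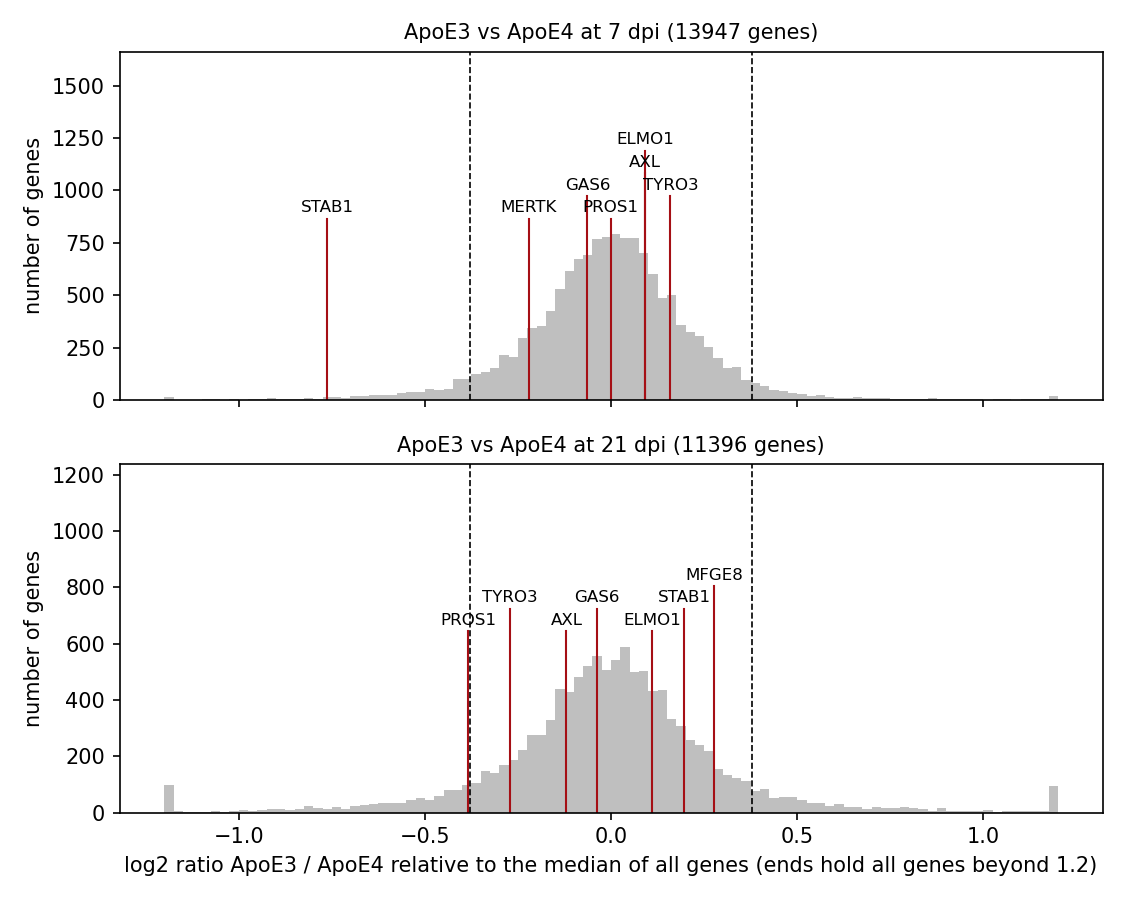
Histograms of the log2 ratio of ApoE3 to ApoE4 relative to the median of all genes, for 13947 genes at 7 dpi (top) and 11396 genes at 21 dpi (bottom), with a red line for each member and dashed lines at 1.3-fold. STAB1 lies in the left tail at 7 dpi and inside the dashed lines at 21 dpi, PROS1 lies on the left line at 21 dpi, and the others lie inside.

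Over time, the question was which members differed between the earlier and the later lesion. In ApoE3 3 of 6 members were past the fold and lower at 21 dpi, beside 27.7% of 10830 genes, and 0 of 6 were higher, beside 26.6%. In ApoE4 3 of 6 were lower, beside 28.6% of 10862 genes, and 1 of 6 was higher, beside 26.2%. The 3 lower members were AXL, PROS1 and STAB1 in each genotype, and the higher one was TYRO3. Centred on genes that averaged 10 FPKM or more, GAS6 was also past the fold and lower in ApoE4. Without the subtraction, 3 of 6 were lower and 2 of 6 higher in ApoE3, beside 23.6% and 31.4% of genes. In ApoE4, 2 of 6 were then lower and 2 of 6 higher, beside 10.9% and 59.1%, the lower ones being AXL and STAB1 and the higher ones TYRO3 and ELMO1. The median ratio of the members was -0.73 in ApoE3 and -0.57 in ApoE4, and without the subtraction it was -0.64 and -0.04.

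**Figure D4:**
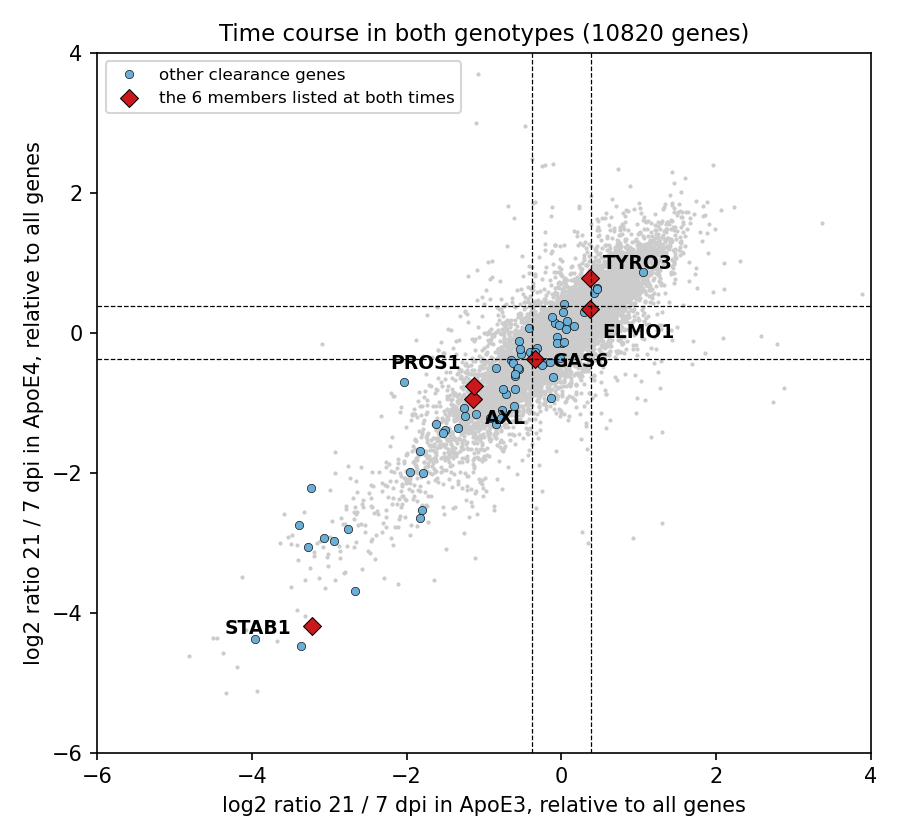
Log2 ratio of 21 dpi to 7 dpi relative to all genes, in ApoE3 (x axis) and ApoE4 (y axis), for 10820 genes (gray, with 4 beyond the axes), the other clearance genes (blue) and the 6 members listed at both time points (red), with dashed lines at 1.3-fold. STAB1 lies at -3.22 and -4.19, AXL at -1.14 and -0.94, PROS1 at -1.13 and -0.76, and TYRO3 at 0.37 and 0.79.

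The members whose level was past the fold over time were set beside their upstream sequence. RefSeq start sites of GRCm38.p6 were matched by symbol for all 8 members, with 9 start sites in all, since ELMO1 has 2. The 250 bases before the start are shown for AXL and PROS1, which were both past the fold and lower at 21 dpi in each genotype, and for STAB1 and TYRO3, which had the lowest and the highest ratio over time, with matched motifs in capitals. AXL lies at chr7:25788734-25788983 on the minus strand, PROS1 at chr16:62854057-62854306 on the plus strand, STAB1 at chr14:31168642-31168891 on the minus strand and TYRO3 at chr2:119799264-119799513 on the plus strand. Each sequence is upstream of its gene and written 5′ to 3′ on the gene's strand.
AXL: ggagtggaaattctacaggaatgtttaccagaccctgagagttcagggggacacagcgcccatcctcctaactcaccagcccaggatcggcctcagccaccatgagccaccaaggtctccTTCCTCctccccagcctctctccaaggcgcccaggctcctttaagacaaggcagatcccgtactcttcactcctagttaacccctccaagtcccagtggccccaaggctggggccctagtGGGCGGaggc
PROS1: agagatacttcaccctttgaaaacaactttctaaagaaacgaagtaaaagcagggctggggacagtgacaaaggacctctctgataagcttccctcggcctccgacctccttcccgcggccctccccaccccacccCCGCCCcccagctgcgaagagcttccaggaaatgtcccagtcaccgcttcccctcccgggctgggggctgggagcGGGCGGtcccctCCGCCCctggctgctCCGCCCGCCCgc
STAB1: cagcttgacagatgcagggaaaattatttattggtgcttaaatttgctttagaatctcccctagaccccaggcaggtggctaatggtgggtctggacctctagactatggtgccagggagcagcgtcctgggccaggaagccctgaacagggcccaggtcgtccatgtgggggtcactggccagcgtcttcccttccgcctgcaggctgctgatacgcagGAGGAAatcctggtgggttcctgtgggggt
TYRO3: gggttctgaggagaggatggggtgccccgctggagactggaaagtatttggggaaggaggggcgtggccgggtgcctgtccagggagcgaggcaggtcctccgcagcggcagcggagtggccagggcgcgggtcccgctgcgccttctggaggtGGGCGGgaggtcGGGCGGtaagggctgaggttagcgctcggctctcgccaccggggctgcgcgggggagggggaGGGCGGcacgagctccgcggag
The motifs searched on both strands were the GC box GGGCGG, the PU box GAGGAA, the AP-1 site TGANTCA and the TATA box TATAAA. Of 32851 promoter windows of this length, 32.7% held a GC box, 23.3% a PU box, 6.75% an AP-1 site and 12.4% a TATA box. PROS1 had 5 GC boxes, of which 2 overlap, TYRO3 had 3, AXL had 1 and STAB1 had 0. STAB1 and AXL each had 1 PU box, and the other motifs had no match in these 4 windows. The GC content was 73.2% for TYRO3, 64.4% for PROS1, 60% for AXL and 57.2% for STAB1, beside a median of 52.4% over all windows. A match describes the letters only.

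Genes with the most similar profile over the 4 groups were found for the 3 members with the widest range. The measure was the Euclidean distance between mean-subtracted log2 levels over 4 values and 10861 genes. Nearest to STAB1 were COL6A3 with a distance of 0.36, TOP2A with 0.40 and ANXA1 with 0.43. COL6A3 encodes a chain of collagen VI and had 186 FPKM in ApoE3 and 285 FPKM in ApoE4 at 7 dpi, and 14.5 and 18.4 FPKM at 21 dpi. TOP2A encodes a topoisomerase of dividing cells and ANXA1 an annexin. Nearest to AXL were GLG1 with a distance of 0.018, PIK3R3 with 0.024 and SASH1 with 0.032. For PROS1 they were NABP1 with 0.027, ZFP982 with 0.039 and FNIP1 with 0.061.

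The other genes of apoptotic cell clearance were given in 10 lists by role with 106 genes, of which 93 were listed at 7 dpi, 71 at 21 dpi and 69 at both. The others were not analysed here, and the lists were chosen with earlier results of these data known. At 7 dpi 17 of 93 were past the fold toward ApoE4 (higher there) and 1 toward ApoE3, beside 4.71% and 3.59% of all genes, with a median ratio of -0.11. At 21 dpi 13 of 71 were past it toward ApoE4 and 2 toward ApoE3, beside 7.93% and 7.16%, with a median of -0.08. Without the subtraction it was 52 of 71 toward ApoE4 and 0 toward ApoE3 at 21 dpi, beside 59% and 1.8%, with a median of -0.50. From 7 to 21 dpi 43 of 69 were past the fold and lower in ApoE3 and 44 of 69 in ApoE4, beside 27.7% and 28.6% of all genes, while 4 and 5 were higher, beside 26.6% and 26.2%. The median ratio of these 69 clearance genes over time was -0.59 in ApoE3 and -0.52 in ApoE4, and the second turned to 0.0083 without the subtraction, with 27 of 69 then lower and 19 higher in ApoE4, beside 10.9% and 59.1%. The same shares of all genes stand behind the counts of each role below. Macrophage markers, whose part in the counts of these lists was not tested, had 5 of 12 past the fold toward ApoE4 at 7 dpi with a median ratio of -0.34, and 4 of 6 at 21 dpi with a median of -0.57. At 21 dpi the positive ratios between genotypes given below for ADGRB1, GGCX, TRIO, XKR8, UCP2, PPARD and ADAM10 were negative without the subtraction. MSR1 also stands in the macrophage list and PECAM1 in the endothelial list.

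**Figure D5:**
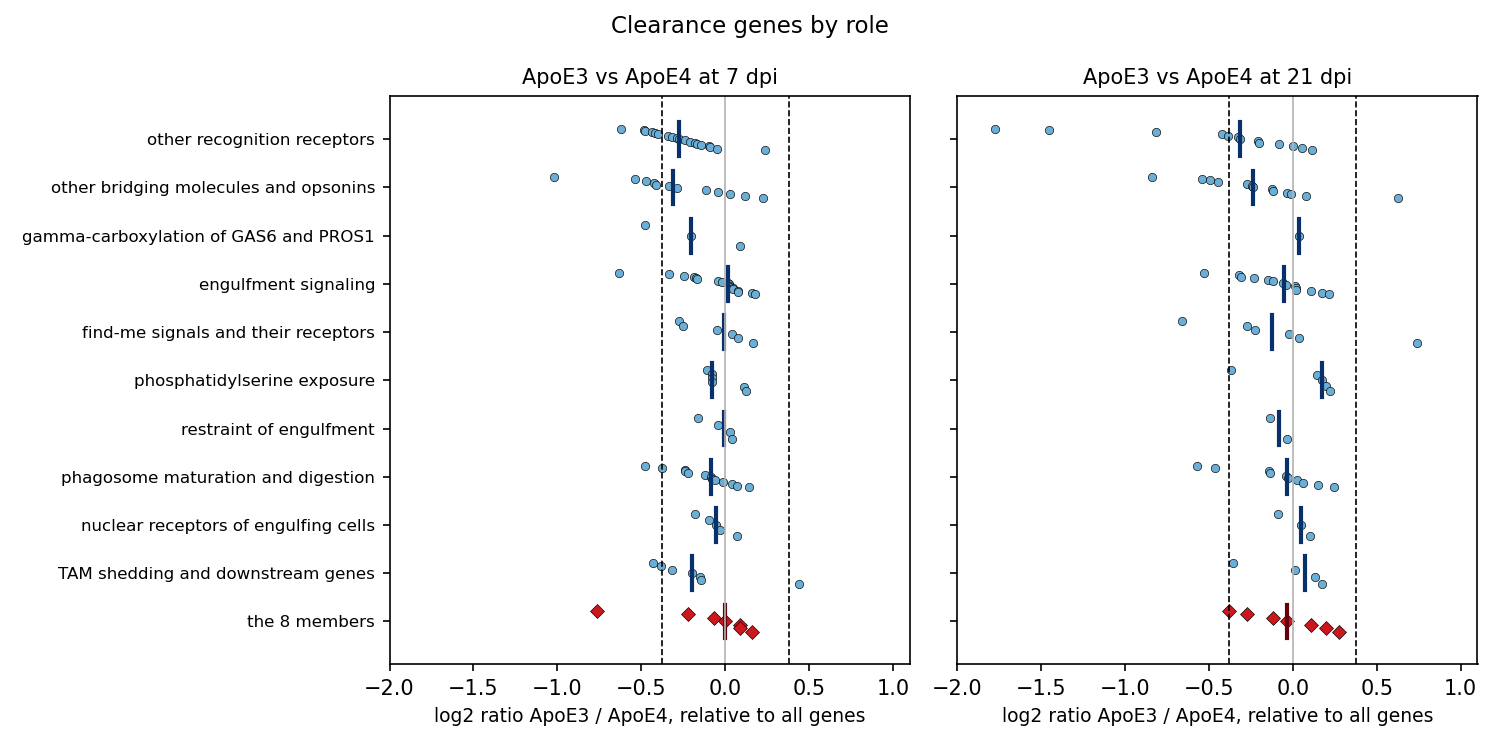
Log2 ratio of ApoE3 to ApoE4 relative to all genes for the clearance genes by role (blue, 1 point per listed gene) and for the members (red), at 7 dpi (left) and 21 dpi (right), with thick bars for medians and dashed lines at 1.3-fold. At 7 dpi 6 recognition receptors and 5 bridging genes lie beyond the left line.

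Among the other recognition receptors at 7 dpi, 18 of 19 listed receptors had a ratio below 0, with 6 past the fold and higher in ApoE4, 0 higher in ApoE3 and a median of -0.27. CD36, a scavenger receptor that acts with integrins and the most abundant of them, had 1292 FPKM in ApoE3 and 1805 FPKM in ApoE4 at 7 dpi. CD14, a receptor for bacterial lipid and apoptotic cells, had the lowest ratio, -0.62, with 20.4 and 31.9 FPKM. MEGF10, an engulfment receptor of astrocytes, had the highest ratio, 0.24, with 8.04 and 6.67 FPKM. At 21 dpi 5 of 13 receptors were past the fold and higher in ApoE4, and the median was -0.32. This became 11 of 13 and -0.74 without the subtraction. OLR1, a lectin-like scavenger receptor, had the lowest ratio, -1.78, with 1.05 FPKM in ApoE3 and 8.42 FPKM in ApoE4. ADGRB1, also called BAI1, binds phosphatidylserine and signals through ELMO1, and it had the highest ratio, 0.11, which was -0.31 without the subtraction. Its level was 605 and 625 FPKM at 7 dpi, and 1332 and 1651 FPKM at 21 dpi. From 7 to 21 dpi 11 of 13 receptors in ApoE3 and 10 of 13 in ApoE4 were past the fold and lower, and without the subtraction the second count was 6. In each genotype 2 of 13 were past it and higher, or 3 in ApoE4 without the subtraction.

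Of the bridging molecules and opsonins other than the members, 5 of 12 at 7 dpi were past the fold toward ApoE4 and 0 toward ApoE3, with a median of -0.31. These 5 were THBS1, C1QA, C1QB, ANXA1 and CALR, of which C1QA, C1QB and CALR are named after their values were seen. THBS1, which bridges apoptotic cells to CD36, had the lowest ratio, -1.02, with 15.7 FPKM in ApoE3 and 32.9 FPKM in ApoE4. C1QA, a chain of the first complement component, had 935 and 1254 FPKM at 7 dpi and 419 and 790 FPKM at 21 dpi. EDIL3, a relative of MFGE8, had the highest ratio, 0.23. C4B, a complement component and the most abundant, had 2721 FPKM in ApoE3 and 2799 FPKM in ApoE4 at 7 dpi, and 2739 and 4439 FPKM at 21 dpi. At 21 dpi 4 of 13 were higher in ApoE4 and 1, ANXA1, was higher in ApoE3 with a ratio of 0.63 from 1.84 and 1.47 FPKM, which was 0.20 and inside the fold without the subtraction. Then 11 of 13 were past it toward ApoE4, with a median of -0.66. APOH had the lowest ratio at 21 dpi, -0.84, with 0.835 and 3.40 FPKM. All 7 listed liver markers were past the fold toward ApoE4 then, and their part in the APOH values was not tested. From 7 to 21 dpi 8 of 12 in ApoE3 and 9 of 12 in ApoE4 were past the fold and lower, and 0 were higher. Without the subtraction 7 of 12 in ApoE4 were lower and 3, C4B, EDIL3 and TUB, were higher.

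Carboxylation of GAS6 and PROS1 needs GGCX and the vitamin K cycle. At 7 dpi GGCX, the carboxylase, was past the fold and higher in ApoE4, with 51.7 FPKM in ApoE3 and 72.4 FPKM in ApoE4 and a ratio of -0.48. VKORC1, the most abundant of the 3 genes, had 95.9 and 110 FPKM, and VKORC1L1 had the highest ratio, 0.09. At 21 dpi only GGCX was listed, with 51.2 and 67.1 FPKM and a ratio of 0.04, which was -0.39 and past the fold toward ApoE4 without the subtraction. The 2 ligands themselves had ratios of -0.06 for GAS6 and -0.0012 for PROS1 at 7 dpi.

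Engulfment signaling, the list that holds the partners of ELMO1, had a median ratio of 0.02 at 7 dpi and -0.05 at 21 dpi. DOCK2, a Rac activator of hematopoietic cells, was the 1 of 18 genes past the fold at 7 dpi, with 42.5 FPKM in ApoE3 and 66.4 FPKM in ApoE4. At 21 dpi 1 of 14 was, VAV1, another Rac activator of these cells, with 13.7 and 27.5 FPKM. Both were higher in ApoE4. Without the subtraction 11 of 14 were past the fold toward ApoE4 at 21 dpi, with a median of -0.47. PTK2, or focal adhesion kinase, was the most abundant with 1047 and 937 FPKM at 7 dpi. The highest ratios were 0.18 for ELMO3 at 7 dpi and 0.21 for TRIO at 21 dpi. From 7 to 21 dpi 9 of 14 in ApoE3 and 8 of 14 in ApoE4 were past the fold and lower and 0 were higher, while ELMO1 had positive ratios of 0.37 and 0.34. In ApoE4 the median over time was -0.43, and without the subtraction it was 0.10, with 4 of 14 lower and 3 higher.

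For the steps before engulfment, genes were given in 3 lists. Of 6 listed genes for find-me signals and their receptors, 0 were past it at 7 dpi. At 21 dpi SPHK1, a sphingosine kinase, was higher in ApoE4 with 55.5 FPKM in ApoE3 and 119 FPKM in ApoE4, and P2RY2, a nucleotide receptor, was higher in ApoE3 with 7.69 and 5.99 FPKM, although its ratio was 0.31 and inside the fold without the subtraction, when 5 of 6 were past it toward ApoE4. SPHK1 also had the lowest ratio at 7 dpi, -0.28, and CX3CL1, or fractalkine, the highest, 0.16. For phosphatidylserine exposure 0 of 6 genes were past the fold at 7 dpi and 0 of 5 at 21 dpi. The flippase ATP11A was the most abundant, with 374 and 394 FPKM at 7 dpi, and ratios in this list ran from -0.11 for XKR8 to 0.13 for TMEM30A. At 21 dpi they ran from -0.37 for TMEM30A to 0.22 for XKR8, and without the subtraction 1 of 5 was past the fold toward ApoE4. For restraint of engulfment 0 of 4 and 0 of 2 were past the fold. SIRPA, the receptor of the signal CD47, had 2469 and 2753 FPKM at 7 dpi and the lowest ratio, -0.16, and CD47 had the highest, 0.04. At 21 dpi CD47 had a ratio of -0.03 and CD24A of -0.14, and without the subtraction both were past the fold toward ApoE4.

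Genes for phagosome maturation and digestion had 2 of 13 past the fold at 7 dpi and 2 of 10 at 21 dpi, each of them higher in ApoE4. The counts were 1 of 13 and 7 of 10 without the subtraction, and the call lost at 7 dpi, SLC37A2, lay at the threshold. UCP2, a mitochondrial protein that sustains uptake, had the lowest ratio at 7 dpi, -0.47, with 251 FPKM in ApoE3 and 348 FPKM in ApoE4, and the highest at 21 dpi, 0.25, with 75.6 and 85.7 FPKM. RAB5A had the highest ratio at 7 dpi, 0.14. DNASE2A, which digests engulfed DNA, had the lowest at 21 dpi, -0.57, with 25.3 and 51.4 FPKM. RAB7, a regulator of late endosomes and the most abundant at 21 dpi, had 884 and 1068 FPKM then. Of the nuclear receptors of engulfing cells, 0 of 5 were past the fold at 7 dpi and 0 of 3 at 21 dpi. NR1H2, a liver X receptor, was the most abundant with 395 and 410 FPKM at 7 dpi. Ratios ran from -0.18 for PPARG to 0.07 for RXRA at 7 dpi, and from -0.09 for NR1H3 to 0.10 for PPARD at 21 dpi, when 1 of 3 was past the fold toward ApoE4 without the subtraction.

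The last list held genes of TAM shedding and genes downstream of TAM receptors. At 7 dpi 2 of 7 were past the fold and higher in ApoE4, and 1 was higher in ApoE3. TWIST1, a repressor induced through AXL, had the lowest ratio, -0.43, with 1.91 and 2.91 FPKM. At 21 dpi 0 of 4 were past the fold, or 2 of 4 toward ApoE4 without the subtraction. The proteases that shed MERTK and AXL had the lowest and the highest ratio then, -0.36 for ADAM17 and 0.18 for ADAM10. Over time 3 of these 4 were past the fold and lower at 21 dpi in each genotype.

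Microglia and astrocytes also engulf dying cells and debris. Of 10 microglia markers 7 were listed at 7 dpi, with a sum of 1183 FPKM in ApoE3 and 1363 FPKM in ApoE4, and 1 was past the fold and higher in ApoE4. At 21 dpi 6 were listed, with a sum of 283 and 509 FPKM, and 2 were past the fold and higher in ApoE4, SIGLECH being the most abundant with 123 and 237 FPKM. The 5 microglia markers that were listed at both time points summed to 518 and 591 FPKM at 7 dpi and to 276 and 498 FPKM at 21 dpi. Astrocyte markers had 0 of 8 past the fold at 7 dpi, with a sum of 17119 FPKM in ApoE3 and 16674 FPKM in ApoE4. At 21 dpi 2 of 8 were past it and higher in ApoE4, with a sum of 13301 and 23100 FPKM. Without the subtraction 6 of 6 microglia and 8 of 8 astrocyte markers were past the fold toward ApoE4 at 21 dpi, beside 59% of all genes. Over time all 7 astrocyte markers listed at both had ratios below 0 in both genotypes, with a median of -0.68 in ApoE3 and -0.32 in ApoE4, and the second was 0.20 without the subtraction. No marker of either list was listed at 0. The part of these cells in the values of AXL, MERTK and GAS6 was not tested.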

How the data were processed

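RNA-seq of lesion segments was analysed from 1 deposited table with 4 groups, grouped by the genotype and time point in the labels. The deposited values are FPKM with 1 added by the authors, 1 value per gene in each group, and 1 was subtracted here. The submitters' processing notes name STAR 2.5.4b, Bowtie2 2.1.10, SAMtools 0.1.7 and Cuffdiff 1.3.0, and by the methods every library was down-sampled to the same number of reads. The down-sampling came before alignment, and by the same methods 1 library aligned at a lower rate than the others. The group of that library is not known here. The genome build was not given in the sources used here. The table also holds the authors' p-values, q-values and fold changes between genotypes, which were not used, and a second table of their selected genes was not used. All 25601 rows had a test status of Ok. Symbols on 2 rows (2 at each time point) were left out, leaving 14123 genes at 7 dpi and 11470 at 21 dpi.

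Ratios were computed with a pseudocount of 1 and centred on the median over genes that averaged 1 FPKM or more. Called means past a fold of 1.3. No test was run, since each group has 1 value per gene. The reads behind each value are not known, and counting error could not be computed. Alternatives were pseudocounts of 0.1 and 0.01, no centring, centring on genes that averaged 10 FPKM or more or on all listed genes, folds of 1.5 and 1.2, and for shares the deposited value as it stands.

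Named genes were the members. Of each role list they were the most abundant gene and the genes with the highest and lowest ratio between genotypes, and of each of the 14 marker lists the most abundant gene and any gene listed at 0. The 3 nearest profiles were added for 3 members. Some genes that this rule names are not reported here. The members and lists were chosen with earlier results of these data known. The calculation was tested on simulated data. Python 3.11.15, numpy 2.4.6, pandas 2.3.3 and matplotlib 3.10.9 were used.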

Additional observations from a re-analysis of the deposited data

How the results depend on the processing

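Of 26 single ratios of members, recomputed under 5 alternatives each (130 values), 114 kept their direction and their side of the fold, and none that was past the fold changed sign. All 28 shares of receptors and ligands moved by less than 1 percentage point with the deposited value as it stands, a tolerance set here because no spread exists. Without centring, 4 members were past the fold between genotypes at 21 dpi in place of 1, and 5 in place of 3 between time points in ApoE3. The median ratio of the members without centring was 0.00060 at 7 dpi, -0.46 at 21 dpi and -0.041 between time points in ApoE4. By construction these values hold the shift of all genes. PROS1 at 21 dpi lay at the threshold. Centred on genes averaging 10 FPKM or more its ratio was -0.377 and 0 members were past the fold, 0 at a fold of 1.5, and 3 at a fold of 1.2. Between time points in ApoE3 a fold of 1.2 gave 6 members. In ApoE4 GAS6 passed the fold over time with pseudocounts of 0.1 (-0.40) and 0.01 (-0.41) and when centred on genes averaging 10 FPKM or more (-0.41). Depth per gene and the spread between mice are unknown, so no value here has an error. No paired analysis was possible because each group has 1 value per gene.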

Other observations

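Schwann cell markers had 6 of 7 listed at 21 dpi, all 6 past the fold and higher in ApoE3, with a sum of 1093 FPKM in ApoE3 and 84.8 FPKM in ApoE4. At 7 dpi 3 were listed, with a sum of 45.9 and 63.8 FPKM, 2 of them past the fold and higher in ApoE4, and EGR2 was the most abundant. Of the sensory ganglion neuron markers 6 were listed at 21 dpi, and 3 of the 4 that averaged 1 FPKM or more were past the fold and higher in ApoE3. In ApoE4, MRGPRD and TRPV1 were both listed at 0, while ApoE3 had 1.80 FPKM of MRGPRD and 1.61 FPKM of TRPV1. CALCA, the most abundant, had 702 FPKM in ApoE3 and 830 FPKM in ApoE4 at 21 dpi, and the list summed to 769 and 831 FPKM. At 7 dpi 1 of 2 listed markers, CALCA, was past the fold and higher in ApoE3, with a sum of 483 and 364 FPKM. Skeletal muscle markers, described at 21 dpi above, summed to 63.5 FPKM in ApoE3 and 40.8 FPKM in ApoE4 at 7 dpi.

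Erythrocyte markers had 0 of 5 past the fold at 7 dpi and 0 of 4 at 21 dpi. The 4 listed at both summed to 346 FPKM in ApoE3 and 347 FPKM in ApoE4 at 7 dpi, and to 1063 and 1335 FPKM at 21 dpi. Of 4 neutrophil markers that averaged 1 FPKM or more at 7 dpi, 3 were past the fold and higher in ApoE3. The other 1, MMP8, was past it and higher in ApoE4, with 2.01 FPKM in ApoE3 and 3.31 FPKM in ApoE4. Over 5 listed the sum was 51.7 FPKM in ApoE3 and 33.4 FPKM in ApoE4. At 21 dpi 2 of 5 were past it and higher in ApoE4, or 4 of 5 without the subtraction, beside 59% of all genes. The sum was then 58.2 and 110 FPKM. LCN2 was the most abundant at both times and gave most of each sum. It had 29.4 and 18.1 FPKM at 7 dpi, and 44.2 and 75.2 FPKM at 21 dpi. Of 7 lymphocyte markers 1, CD79B, was listed at 7 dpi with 2.46 and 3.28 FPKM. At 21 dpi 2 were listed, with a sum of 1.66 and 4.33 FPKM. Oligodendrocyte markers had 0 of 5 past the fold between genotypes at 7 dpi and 0 of 7 at 21 dpi. Without the subtraction 7 of 7 were past it toward ApoE4 at 21 dpi, beside 59% of all genes.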
